A study of Komagataella phaffii CBS 7435 with 54 samples.

Results

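In this experiment, the yeast Pichia pastoris (Komagataella phaffii) was grown in glucose-limited aerobic chemostats, and the transcriptome at a dilution rate of 0.025 h-1 was compared with that at 0.05 h-1. The comparison rests on the 12 arrays whose titles give these rates, of 54 arrays in the series, which make up 3 replicates per rate with 2 dye-swapped arrays each. The labels name the strain CBS 7435. Per the methods of the study, all cultures carried a deletion of flo8, which encodes a regulator of flocculation and filamentous growth, so this deletion is shared by both groups, and its probe could not be told from the identifiers and was not analyzed here. Both groups received the same minimal medium with glucose as the only carbon source, at the same temperature and pH. Every array carried culture RNA against a common pool of P. pastoris RNA, which was mixed from cells grown on glycerol, glucose and methanol, in exponential and stationary phase and under stress. A level is therefore a log2 ratio of culture over pool. The numbered replicates cannot all be separate cultures, since duplicate chemostats were described, so the spread and the p values below measure the variation between these replicates, part of which may be technical.

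In a chemostat, the feed rate sets the specific growth rate of the cells. Slowing the feed of a glucose-limited culture also lowers the residual glucose and the glucose that each cell takes up per hour. P. pastoris is a Crabtree-negative yeast, which respires glucose rather than fermenting it when oxygen is present. In the yeast Saccharomyces cerevisiae, genes for ribosomes and translation are known to follow the growth rate, and genes for stress defense, reserve carbohydrates and alternative carbon sources are known for the opposite course. The study used its chemostats to cover the range of growth rates above the retentostat, a chemostat whose cells are held back by a filter until growth nearly stops. Per the methods of the study, the retentostats ran in a different bioreactor system. Reactor and growth rate therefore cannot be told apart between them and these chemostats. The step from 0.05 to 0.025 h-1 is the last reduction of the growth rate before that system, and it follows the step from 0.1 to 0.05 h-1, which changes the growth rate by the same factor.

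On the 12 arrays, the culture channel was well above background for 94.2% to 98.4% of the spots, the median culture signal was between 2591 and 7218, and 0 spots were saturated. Between replicates of a rate, the median probe had an SD of 0.05 on the log2 scale at 0.025 h-1 and of 0.08 at 0.05 h-1 (n = 3 each). The arrays lay on 5 slides, of which slides 4 and 6 held both rates in both dye orientations. One array of 0.05 h-1, replicate 1 with the culture in Cy5, had outlier marks on 6.38% of its spots, against 0.877% or less on the other arrays of both rates. Apart from 17 PDKT and 43 PIPA probes, the array identifiers are Pipas numbers. Of these, 5040 match a locus tag of strain GS115 and 271 do not. No table that was read pairs the identifiers with gene names or functions. The genes below are therefore given by identifier, and the functional groups were not analyzed here.

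The decrease from 0.05 to 0.025 h-1 moved many transcripts by small amounts. Of 5371 probes, 1349 rose and 1149 fell at an adjusted p value below 0.05 (limma, Benjamini-Hochberg), which together are 46.5% of the probes tested. The size of the change had a median of 0.14 on the log2 scale over all probes and a median of 0.26 over the probes that rose or fell. Changes beyond 1.5-fold were found for 94 of these probes, which are 1.75% of all probes tested. Of the 94, 77 were rises (1.43% of all) and 17 falls (0.317% of all). A change of more than 2-fold at an adjusted p value below 0.05 was found for 10 probes, 0.186% of those tested. All 10 were rises. No probe fell by more than 2-fold in this limma fit at any p value, and the largest fall was 0.96 on the log2 scale. With scanner software log ratios in place of the background correction and LOESS steps, 9 rises and 4 falls passed both criteria. A background offset of 0 gave 10 rises and 1 fall, and arrays with the culture in Cy3 alone gave 8 rises and 1 fall. Without replicate 3 at 0.025 h-1, 9 rises and 1 fall passed. In the limma fit above, rises made up 54% of the probes past the adjusted p value alone and 81.9% of those that were also beyond 1.5-fold. Among the alternatives, only the scanner software log ratios had fewer rises than falls past the adjusted p value alone, with 1342 against 1348.

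The precision of the arrays also limits the size of the changes over all probes, called or not. The intervals rest on the variation between these replicates, part of which may be technical. They may therefore be too narrow for the variation between cultures. The 95% interval of the log2 fold change had a median half-width of 0.13. For 5348 probes, or 99.6%, the interval lay wholly inside a 2-fold change, and for 5007 probes, or 93.2%, it lay inside a 1.5-fold change. The plot of fold change against adjusted p value shows the narrow body of small changes and the tail on the side of higher levels at 0.025 h-1.

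**Figure D1:**
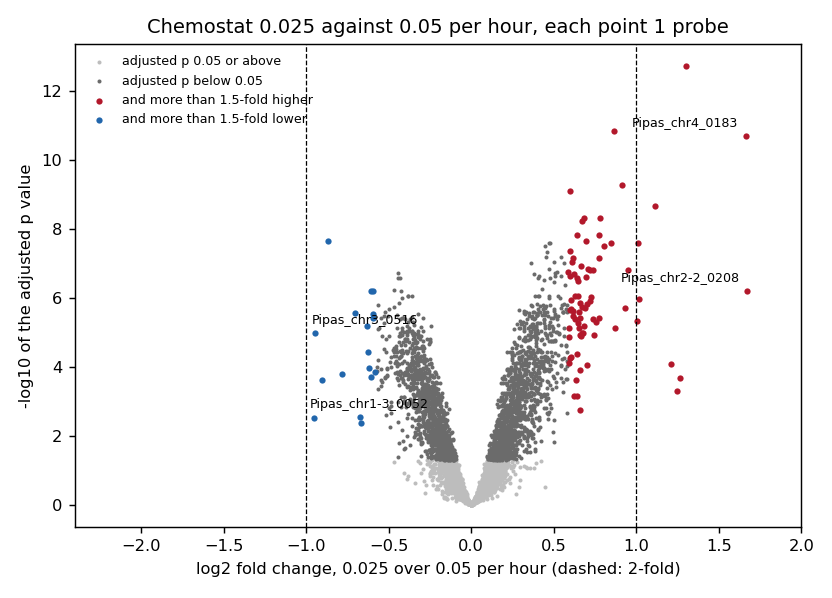
The log2 fold change of each of 5371 probes (0.025 over 0.05 h-1, horizontal axis) is plotted against -log10 of its adjusted p value (vertical axis), with probes past 1.5-fold in red (77 rises) and blue (17 falls) and dashed lines at 2-fold. The 10 probes beyond the right line have no counterpart beyond the left one.

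The largest rise was that of Pipas_chr2-2_0208, a gene of chromosome 2 with a length of 507 bp in the RefSeq table of strain GS115 (assembly ASM2700v1). Its level at 0.025 h-1 was 0.73, 0.76 and 0.34 in replicates 1 to 3, and at 0.05 h-1 it was -0.98, -1.38 and -0.83. All replicates at 0.025 h-1 were above the pool and all at 0.05 h-1 below it. The rise amounted to 1.67 on the log2 scale (SE 0.19, adjusted p = 6.1e-07, limma), or 3.18-fold. The faster chemostats had lower levels still, with means of -1.37 ± 0.05 at 0.075 h-1 and -1.98 ± 0.12 at 0.1 h-1 (SD, n = 3). In the retentostat the mean level was 2.56 ± 0.30 after 21 h and 2.55 ± 0.34 after 545 h.

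Pipas_chr4_0183, whose identifier places it on chromosome 4 and has no match in the RefSeq table, rose by nearly the same amount. Its replicates lay at 0.42, 0.47 and 0.07 at 0.025 h-1 and at -1.39, -1.39 and -1.25 at 0.05 h-1, so that the groups did not overlap. The log2 fold change was 1.66 (SE 0.10, adjusted p = 2.0e-11, limma), which is 3.17-fold. Among the chemostats, this gene was higher at each slower rate, from -3.59 ± 0.10 at 0.1 h-1 and -2.62 ± 0.07 at 0.075 h-1 (SD, n = 3) to the rates compared here. In the retentostat its mean was 2.15 ± 0.14 after 21 h and 3.63 ± 0.12 after 545 h, and the means at the 3 times between were from 3.41 to 3.496, with that at 380 h below that at 116 h. Its step from 0.1 to 0.05 h-1 was 2.25, and the later step was smaller than this by 0.58 (SE 0.17, adjusted p = 0.010 for the difference, limma).

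Of the genes with lower levels at 0.025 h-1, Pipas_chr1-3_0052, a gene of 1191 bp on chromosome 1, changed most. It had levels of -4.18, -4.05 and -3.84 at 0.025 h-1 and of -3.07, -3.10 and -3.03 at 0.05 h-1, below the pool in every replicate. The log2 fold change was -0.96 (SE 0.25, adjusted p = 0.0029, limma), with a 95% interval from -1.47 to -0.44. Its mean was -1.95 ± 0.04 at 0.1 h-1 (SD, n = 3). In the retentostat its mean was -4.20 ± 0.13 after 21 h and -2.17 ± 0.37 after 545 h, so that the level after 545 h was near that of the fastest chemostat. With the 27 arrays alone that carried the culture in Cy5, the change of this gene was -0.90 with an adjusted p value of 0.12 (limma).

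Pipas_chr3_0516, a gene of 1578 bp on chromosome 3, fell with little spread between replicates. Its level was -1.40, -1.39 and -1.42 at 0.025 h-1 and -0.40, -0.48 and -0.49 at 0.05 h-1. The log2 fold change was -0.95 (SE 0.14, adjusted p = 1.1e-05, limma), after a step of -1.49 (adjusted p = 1.3e-08) from 0.1 to 0.05 h-1. It went from 1.03 ± 0.04 at 0.1 h-1 through 0.57 ± 0.04 at 0.075 h-1 (SD, n = 3) to levels below the pool, and its retentostat means ranged from -2.33 to -1.48. For both falling genes and for Pipas_chr2-2_0208, the test of the difference between both steps did not pass (adjusted p = 0.81, 0.087 and 0.082).

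**Figure D2:**
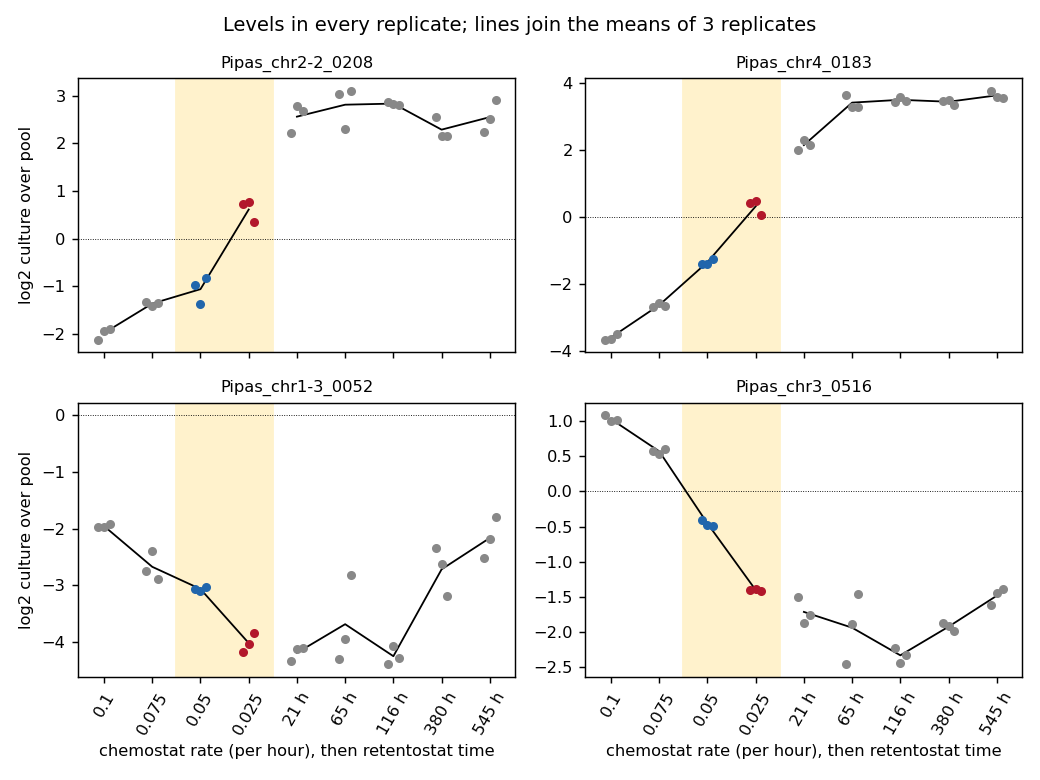
The level (log2 culture over pool, vertical axis) of the 2 largest rises and the 2 largest falls is shown in every replicate of the 4 chemostats and the 5 retentostat times, with lines through the means of 3 replicates and the compared rates shaded. Replicates at 0.025 h-1 (red) and 0.05 h-1 (blue) do not overlap for any of the 4 genes.

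The other 8 probes that rose more than 2-fold had log2 fold changes from 1.00 to 1.30, with adjusted p values from 1.8e-13 to 5.1e-04 (limma). All 10 were well above background on all 12 arrays, and their replicates did not overlap between the rates, with the higher values at 0.025 h-1, as was the case for 27.5% of all probes. The smallest of the 10 rises, 1.001, lies close to the criterion, and the next rise below it was 0.95. A test against a 2-fold change, which asks for evidence that the true change exceeds 2-fold, was passed by 2 probes. At 0.1 h-1, the median level of the 10 was -2.38. There, 8 of them had less than the level of the pool by a log2 ratio of more than 1. In all 10, the level after 21 h of retentostat cultivation was more than 2-fold above that at 0.1 h-1, a change found for 8.08% of all probes. Neither of these conditions enters the fold changes of 0.025 over 0.05 h-1, but both enter the estimate of the spread. The chemostat at 0.1 h-1 and the retentostat differ from each other in bioreactor system as well as in growth rate.

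The 10 rises were also present in each part of the arrays. These parts belong to the arrays that defined the 10, so their values only describe how the rises are spread over them. With the culture in Cy3 they ranged from 0.77 to 1.69, and with the culture in Cy5 from 0.98 to 1.99. Within slide 4 they ranged from 0.77 to 2.02 and within slide 6 from 0.51 to 1.60, so that every one was higher at 0.025 h-1 in every part. The sizes were less uniform than the directions. The fifth largest, for example, was 1.97 on slide 4 and 0.58 on slide 6. Pipas_chr2-2_0208 and Pipas_chr4_0183 had differences of 2.00 and 2.02 on slide 4 and of 1.34 each on slide 6, whereas Pipas_chr3_0516 had -0.92 and -0.93. Pipas_chr1-3_0052 had -0.92 on slide 4 and -0.77 on slide 6. These values within a slide are differences of 2 arrays against 2 arrays and have no test. At 0.025 h-1, slide 4 held only replicate 2 and slide 6 only replicate 3, so slide and replicate cannot be told apart. Without the array that had the most outlier marks, 8 of the 10 rises still passed both criteria, and no other probe did.

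**Figure D3:**
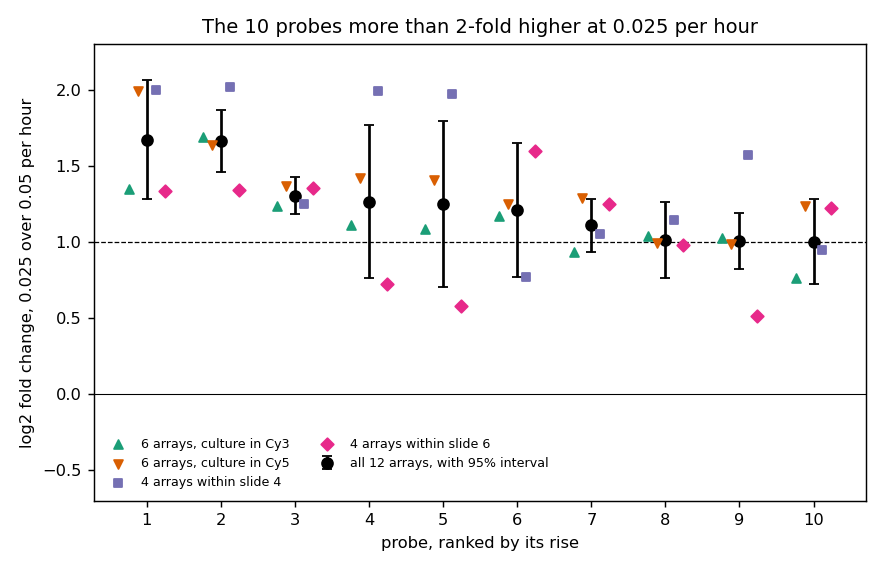
The log2 fold change of each of the 10 probes past 2-fold (vertical axis), ranked by size (horizontal axis), is shown from all 12 arrays with its 95% interval, from each dye orientation and from the slides that hold both rates. All values are above 0, and slides 4 and 6 differ most for the probes ranked 4, 5 and 9.

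Over all probes that rose past 1.5-fold, 77 of 77 had a higher value at 0.025 h-1 in both dye orientations and within both slides, and 17 of 17 falls had a lower value in each. The median of the 77 rises was 0.66 with the culture in Cy3 and 0.74 with the culture in Cy5, 0.75 within slide 4 and 0.73 within slide 6. For the smaller changes past the adjusted p value alone, the direction was the same within both slides for 1180 of 1349 rises and for 1030 of 1149 falls. Rise and fall were defined from the same arrays, so these counts describe how the change is spread over them.

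In their medians, the rises past 1.5-fold lay below the pool at higher growth rates and above it at 0.025 h-1. The median level of the 77 probes was between -0.56 and -0.54 in the replicates at 0.1 h-1, between -0.70 and -0.51 at 0.05 h-1, and between 0.14 and 0.20 at 0.025 h-1. The 17 falls had medians between -0.12 and 0.02 at 0.05 h-1 and between -0.85 and -0.80 at 0.025 h-1, against 0.12 to 0.19 at 0.1 h-1. The median over all probes stayed between -0.01 and 0.00 in each of these replicates, where the normalization places it.

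Arrays of 0.075 and 0.1 h-1 give the start of the growth rate range without any replicate of the comparison. Of the 77 rises, 19 were already higher at 0.075 than at 0.1 h-1 (24.7%) and 17 were lower (22.1%), at an adjusted p value below 0.05, while over all probes 10.2% were higher and 9.20% lower. The remaining 41 did not pass this test. Of the 17 falls, 0 were higher and 4 were lower. The genes that rose at the slowest chemostat therefore had no common direction at the fast end of the range.

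The levels of these subsets at 0.1 and 0.075 h-1, and from 0.05 to 0.025 h-1, follow in part from how they were chosen, and all levels are given as a description. The 19 probes that were already higher at 0.075 h-1 had median levels of -0.85 at 0.1 h-1, -0.46 at 0.075 h-1, -0.26 at 0.05 h-1 and 0.61 at 0.025 h-1, and 1.41 after 21 h of retentostat cultivation. The 41 probes without a called change at the fast end stayed at medians from -0.47 to -0.36 over the 3 faster rates, and were at 0.32 at 0.025 h-1 and 0.74 after 21 h. The 17 probes that were lower at 0.075 than at 0.1 h-1 had medians of -0.55 at 0.1 h-1, -0.91 at 0.075 h-1, -1.05 at 0.05 h-1 and -0.34 at 0.025 h-1, and of -0.08 after 21 h. Over all 77 rises, whose choice used neither 0.1 h-1 nor the retentostat, 51 were more than 2-fold higher after 21 h than at 0.1 h-1, or 66.2% against 8.08% of all probes, and 10 of the 17 falls, or 58.8%, were more than 2-fold lower after 21 h than at 0.1 h-1 against 2.22% of all probes. The reverse was found for 0 of 77 and 0 of 17. The chemostat at 0.1 h-1 and the retentostat differ in bioreactor system as well. The part of the growth rate in these changes was not tested.

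**Figure D4:**
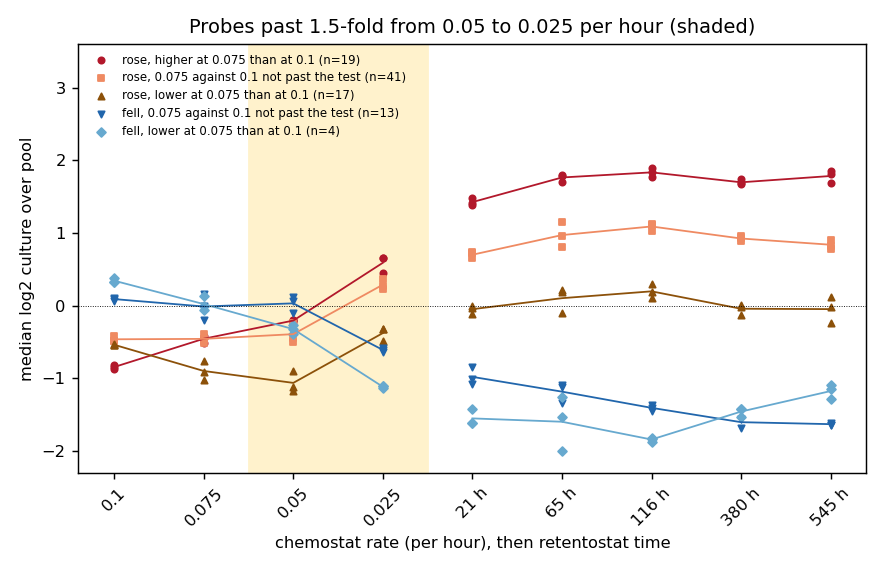
The median level (log2 culture over pool, vertical axis) of the 77 rises and 17 falls past 1.5-fold is shown in every replicate, split by their change from 0.1 to 0.075 h-1, with lines through the means and the compared rates shaded. The 17 rises that were lower at 0.075 h-1 have their lowest medians at 0.05 h-1, whereas the 19 that were higher there have higher medians at each slower chemostat rate, both following in part from how the subsets were chosen.

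Between 21 h and 545 h of retentostat cultivation, the median change was 0.18 for the 77 rises and -0.50 for the 17 falls, with 39 of the 77 higher and 17 lower at an adjusted p value below 0.05, while over all probes 36.2% were higher and 34.2% lower. Of the 17 falls, 4 were higher and 11 lower. Of the 77 rises, 3 went up further by more than 2-fold and 4 went down by more than 2-fold, against 1.12% and 3.5% of all probes. The probes ranked 4, 5 and 10 among the 10 largest rises were among these 4. The levels of the first pair were -1.71 and -2.35 at 0.025 h-1, reached -0.04 and 0.45 after 116 h of retentostat cultivation, and were -3.04 and -3.39 after 545 h. At that time the probe ranked 4 was below its mean at 0.1 h-1, which was -2.44, while the 9 others were above theirs.

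The step from 0.05 to 0.025 h-1 was next set against that from 0.1 to 0.05 h-1. Both steps share the replicates at 0.05 h-1, so their values are given side by side and the difference was tested in its own contrast. The earlier step had 1615 rises and 966 falls at an adjusted p value below 0.05 (30.1% and 18% of all probes), with 117 rises (2.18%) and 45 falls (0.838%) past 1.5-fold and 9 rises (0.168%) and 4 falls (0.0745%) past 2-fold. Its median size was 0.15, against 0.14 for the later step. The difference between the steps passed an adjusted p value below 0.05 for 1799 probes, 33.5% of those tested. In 741 of these the later step was the higher (13.8%) and in 1058 the lower (19.7%). This count rests in part on the replicates at 0.05 h-1, and without replicate 2 of that rate it was 1089. The arrays at 0.1 and 0.05 h-1 shared slide 9 alone. With arrays taken singly, the count was 1278 with slide as a random block and 1908 with slide as a fixed block and dye.

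A part of the differences between the steps were small turns around 0.05 h-1. The mean at 0.05 h-1 enters both steps with opposite sign, so a shift of that group alone would give such turns. Whether it did was not tested. In 270 probes, a called fall was followed by a called rise, with median steps of -0.30 and 0.30 and median levels of -0.37, -0.59, -0.67 and -0.35 from the fastest to the slowest chemostat. In 258 probes, a called rise was followed by a called fall, with median steps of 0.25 and -0.22 and median levels of 0.19, 0.26, 0.41 and 0.16. In 5 probes of the first kind and 0 of the second, both steps were beyond 1.5-fold. A further 252 probes rose only after a first step that was not called, with medians of -0.06 and then 0.35, and 313 fell in the same way, with medians of 0.06 and then -0.32. Rises in both steps with a larger second step were found for 16 probes (medians of 0.20 and 0.60), and with a smaller second step for 64 (medians of 0.60 and 0.24). Falls in both steps differed in size for 10 probes.

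Among the 10 rises past 2-fold, 6 had also risen in the step before and 4 had not passed the test. The latter 4 had earlier steps from -0.54 to 0.11, and in each of them the later step was higher than the earlier one by 1.80 or less (adjusted p values from 3.6e-04 to 0.031, limma). A rise in both steps with no called difference between them was found for 3 of the 10, with earlier steps from 0.92 to 1.17. Among all 77 rises past 1.5-fold, 29 had risen and 21 had fallen in the earlier step, where 30.1% of all probes rose and 18% fell. The later step was called higher than the earlier one in 53 of the 77 and lower in 3, against 13.8% and 19.7% of all probes. Since the 77 were chosen by the later step, which shares the replicates at 0.05 h-1 with the earlier one, these counts only describe them. Pipas_chr4_0183 was one of the 3.

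The called probes were not spread evenly over levels, as the plot of shares shows. The probes were binned by their level at 0.1 h-1, which the fold change does not use. The 447 probes with a log2 ratio between -2 and -1 had 40.9% rises and 7.38% falls, against 25.1% and 21.4% over all probes. The 30 probes with a ratio between 1 and 2 had 13.3% rises and 36.7% falls. Of the 10 rises past 2-fold, 7 were among the 119 probes with a ratio below -2, a bin in which 22.7% rose, 14.3% fell and the median SD between replicates was 0.13, against 0.07 in the bin from -1 to 1. These are descriptions of the probes on these arrays, with no test.

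Gene length varied with the direction of change as well. For 5040 probes a gene length was taken from the RefSeq table as the span of the gene model. The 1294 rises with a length had a median of 1536 bp and the 1084 falls one of 972 bp, with a median of 1198 bp over all genes. The genes were divided by length into 4 bins of nearly equal number. In the bin of the shortest genes, up to 768 bp, 15.6% rose and 28.3% fell. In the bin of the longest, from 1809 bp, 38.1% rose and 9.72% fell. The order of the medians was the same with median centring (1527 and 963 bp), with the scanner software log ratios (1542 and 976.5 bp), and in each dye orientation alone (1602 and 931.5 bp with the culture in Cy3, 1482 and 984 bp with Cy5). Median culture signal at 0.1 h-1 differed between these bins, from 12.4 for the shortest to 13.2 for the longest genes on the log2 scale, and its part in the result was not tested. In 4 bins of that signal, the share of rises ranged from 21.5% to 26.8% and that of falls from 13.1% in the dimmest to 26.1% in the brightest bin. For the larger changes the lengths were closer, with a median of 1446 bp for the rises past 1.5-fold and 1191 bp for the falls. In the step from 0.1 to 0.05 h-1, 23% of the shortest genes rose and 19.7% fell, against 41.0% and 11.3% of the longest. A trend with length was thus not particular to the later step.

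**Figure D5:**
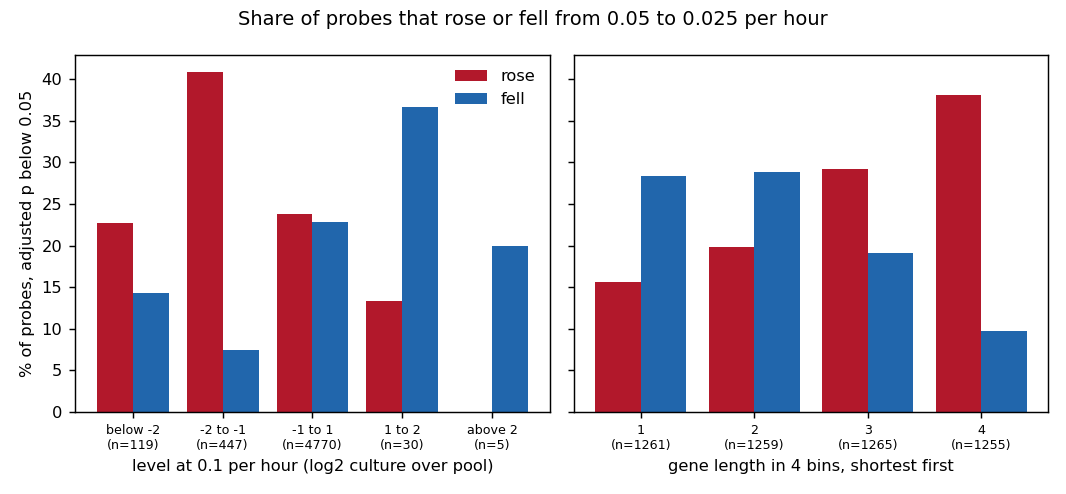
Bars give the percentage of probes (vertical axis) that rose (red) or fell (blue) from 0.05 to 0.025 h-1 at an adjusted p value below 0.05, by level at 0.1 h-1 on the left and by gene length in 4 bins on the right, with the number of probes under each pair. Rises are most frequent between -2 and -1 (40.9%) and among the longest genes (38.1%), and the shares of falls are lowest there, at 7.38% and 9.72%.

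All 4 chromosomes held genes that changed. Of the 73 rises past 1.5-fold with a locus tag, 17, 22, 18 and 16 lay on chromosomes 1, 2, 3 and 4, or 23.3%, 30.1%, 24.7% and 21.9%, against 30.5%, 26.4%, 23.8% and 19.3% of all genes. Of these 73, 6 (8.22%) had a direct neighbor that also rose past 1.5-fold, which makes 3 pairs. Among 4967 other genes, 140 had such a neighbor (2.82%). Next to a fall past 1.5-fold lay 0 of the 15 falls with a locus tag, against 0.597% of the other genes. Among the 1294 rises past the adjusted p value alone, 49.5% lay next to another rise, compared with 42.8% of the other genes. For falls these shares were 42.2% and 37.0%. Of 271 probes whose identifier has no locus tag in the table, 52 rose (19.2%) and 58 fell (21.4%), against 25.1% and 21.4% of all probes, and 2 were among the 10 largest rises.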

How the data were processed

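Per the file headers, the deposited scanner output (Agilent Feature Extraction 11.5.1.1) holds median spot signals and local backgrounds as intensity values without normalization. It also holds log10 ratios per spot, deposited after the software's own background subtraction and dye normalization. A further file deposited by the authors gives their processed log2 ratio of each probe, made with limma. In it, 18 of 54 columns ran as pool over culture, 0 of them among the 12 arrays compared, and it served as an alternative only. Only 35 columns correlated best with their own array as culture over pool, and all columns of the 12 arrays were among these. Where columns were turned, only their sign was changed, and none was moved to another array. The genome build of the probes was not given in the sources used here.

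Signals were background corrected (normexp, offset 50) and LOESS normalized in limma 3.58.1 (R 4.3.3), control spots had weight 0 and outlier spots (1.08% on the 12 arrays) were left out. Ratios were turned to culture over pool by the labelled dyes, averaged over the spots of each of 5371 probes and over both arrays of a replicate. A model with 9 condition means was fitted to 27 replicates (degrees of freedom: 18 residual, 5.38 prior), with eBayes and Benjamini-Hochberg adjustment over all probes. The fit leaves out missing values, which 4 probes had in this comparison. Calls required an adjusted p value below 0.05 and, where stated, a change beyond 1.5-fold or 2-fold. A test against a 2-fold change used the treat function.

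Of 5318 systematic names, 5040 matched a locus tag. Since none is paired with a name or function, the gene lists drawn up for this comparison could not be counted, and genes given by identifier are the 2 largest rises and 2 largest falls that did not overlap between replicates and were well above background. The comparison, the lists and the rule were chosen with earlier results of these data known. The number of arrays limits the precision. The fit was tested on simulated data.

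Alternatives covered background correction, centring, the source of the ratios, outlier spots, dim probes, dye, slide (statmod 1.5.0) and replicate terms, fits of fewer groups, thresholds and each replicate of both rates left out. Single dye orientations, the turned table, the fit without 1 array and fits without each replicate at 0.1 h-1 were added after the data were seen, as were the splits by level, length, chromosome and neighbor.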

Additional observations from a re-analysis of the deposited data

Results flagged for a closer look

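The steps from 0.05 to 0.025 h-1 and from 0.1 to 0.05 h-1 differed for 1799 of 5371 probes, by a test of the difference itself in the limma model (adjusted p value below 0.05). Both steps share the replicates at 0.05 h-1. The difference also passed for 1 of the 4 genes given by identifier, Pipas_chr4_0183, whose later step was the smaller, with a difference of -0.58 on the log2 scale (SE 0.17, adjusted p = 0.010, limma).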

How the results depend on the processing

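The 10 probes past 2-fold were the same 10 without background correction, with outlier spots kept and with dim probes left out. They were also the same with slide or replicate terms and in fits of 4 or 2 groups. Median centring kept 7 of them. An offset of 0 kept 9 of them, among 11 calls that were 10 rises and 1 fall. With a limit of 1.5-fold in place of 2-fold the count was 94, and a test against a 2-fold change left 2. As deposited, the authors' table gave 0 calls for each of the 3 counts, with fold changes of the 4 named genes from -0.98 to 1.67. With its 18 opposite columns turned, it gave 9 probes past 2-fold, 2329 past the adjusted p value and 1604 whose steps differed. Arrays with the culture in Cy3 alone gave 1386 probes past the adjusted p value and 447 whose steps differed, and arrays with Cy5 alone gave 1173 of the latter. At an adjusted p value below 0.01 the steps differed for 1080 probes. Leaving out each replicate at 0.025 and 0.05 h-1 in turn gave 7 to 13 probes past 2-fold, 2037 to 2625 past the adjusted p value and 1089 to 2043 whose steps differed, the lowest of these without replicate 2 at 0.05 h-1. Without each replicate at 0.1 h-1 the last count was 1580 to 1639. Scanner software log ratios split the 13 calls past 2-fold into 9 rises and 4 falls. The cause of these shifts was not tested, apart from the turned columns. Deviations of equal replicate numbers correlated at -0.26, 0.03 and -0.29, and 0 of 3 correlated best with their own number. No pairing of the samples by number was thus seen, though 3 replicates per rate cannot exclude it. With the number as a replicate block, 10, 2489 and 1787 probes passed, and the 4 named genes kept their calls. Of the 4 named genes, Pipas_chr1-3_0052 alone lost its call under an added alternative, Cy5 arrays alone (adjusted p = 0.12, limma); beyond the table as deposited, its adjusted p value elsewhere was 9.9e-06 to 0.017. Within slides, no count could be tested. Counts of gene lists were not run. Signal limits the probes other than the 5147 that were well above background on all 12 arrays.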
